A study of Mus musculus with 6 samples.

Results

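The genes described here are the 83 genes on the array whose platform symbol is Gpr followed by a number, out of 16446 different gene symbols, and each was measured by 1 probe. They were chosen by symbol, and no measured value entered that rule. RNA was profiled on 6 single-colour arrays of hepatic stellate cells, pericytes of the liver sinusoid that store vitamin A. There were 3 arrays of SEPT4-KO mice, which lack the septin Sept4 (KO), and 3 arrays of wild-type mice (WT). All of the mice had liver cirrhosis induced by CCl4, a hepatotoxin, so no array shows uninjured liver. Strain, age, the extent of the deletion and whether an array holds 1 mouse or a pool are stated neither in the labels nor in the values. The p-values therefore measure the spread between these arrays, which may be technical. No probe carried the symbol Sept4, and the deleted gene could not serve as a check of the labels.

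G protein-coupled receptors are membrane proteins that cross the membrane several times and pass an outside signal to G proteins, which then raise or lower cyclic AMP or calcium. The Gpr numbers were given to receptor-like sequences before a ligand was known, so the series mixes true orphans with receptors later matched to fatty acids, lactate, lysophospholipids or peptides. It also holds adhesion receptors with long extracellular domains, and multipass proteins that turned out to have other tasks, such as Wls, which carries Wnt proteins to the cell surface. In a current list of mouse genes, 58 of the platform symbols were still in use and 25 had another name. Stellate cells respond through such receptors to lipids, peptides and matrix during liver injury.

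The cells carried the stellate markers fixed for the check: all 10 were measured, 5 were higher and 2 lower in KO, and Gfap alone among them was mostly under the background level defined below. Myofibroblast markers were measured for 8 of 8 genes, with 2 higher and 6 lower. Macrophage markers were also present, with 7 of 11 measured, 1 higher and 2 lower. The log2 of their summed signal was 11.13 to 11.17 on KO arrays and 11.12 to 11.25 on WT arrays. Marco, the brightest of them, weighs most in that sum (mean log2 signal 10.45 on KO and 10.52 on WT arrays). The called falls were Emr1 (means of 3.61 on KO and 4.88 on WT arrays) and Cd14 (5.07 and 6.08). Clec4f was the called rise (5.46 and 4.94). The sum therefore does not show that macrophage content was equal. Lymphocyte markers (8 of 11 measured) and endothelial markers (7 of 9) had 1 higher each, hepatocyte markers (5 of 7) 1 higher and 1 lower, and cholangiocyte markers (3 of 5) no call. The shares called were 70% of stellate, 100% of myofibroblast and 42.9% of macrophage markers, beside 42.7% of all probes. For lymphocyte, endothelial and hepatocyte markers they were 12.5%, 14.3% and 40%. No marker on any of these lists lay at the lowest value of all 6 arrays. However, 2 lymphocyte markers and 1 cholangiocyte marker were above background on no array. Cd3g, the lymphocyte marker called higher, was among them. The array medians were all 5.02, the median difference of all probes was 0.12 on the log2 scale, and array-to-array correlations were 0.981 to 0.982 within KO, 0.986 within WT and 0.967 to 0.971 between the genotypes. No label gives a processing date or batch for either genotype, so processing and genotype cannot be told apart.

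The 2 called members with the largest differences in each direction, Gpr160 and Gpr103 higher and Gpr35 and Gpr141 lower in KO, are introduced here with the sequence around their start sites, so that a reader can see which genes are meant. Each window runs from 250 bases before to 50 bases after a RefSeq start on GRCm38.p6, 5′ to 3′ on the gene's strand. Capitals mark matches to 3 motifs, searched on both strands and not overlapping each other here: the TCF/LEF motif CTTTGAT, the AP-1 motif TGANTCA and the cyclic AMP response element TGACGTCA.
Gpr160, chr3:30855700-30855999, plus strand: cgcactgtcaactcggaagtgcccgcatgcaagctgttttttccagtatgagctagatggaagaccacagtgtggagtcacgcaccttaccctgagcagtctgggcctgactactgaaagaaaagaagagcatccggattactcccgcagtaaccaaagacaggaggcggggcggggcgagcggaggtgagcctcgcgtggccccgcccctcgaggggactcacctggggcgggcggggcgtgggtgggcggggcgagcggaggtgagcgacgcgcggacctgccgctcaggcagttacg
Gpr103 (Qrfpr), chr3:36222226-36222525, minus strand: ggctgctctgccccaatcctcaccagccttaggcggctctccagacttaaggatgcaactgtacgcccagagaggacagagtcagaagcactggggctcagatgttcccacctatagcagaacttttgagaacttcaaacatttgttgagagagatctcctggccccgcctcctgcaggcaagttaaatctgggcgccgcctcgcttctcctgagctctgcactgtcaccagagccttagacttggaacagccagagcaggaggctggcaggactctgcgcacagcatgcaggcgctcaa
Gpr35, the upstream of 2 starts, chr1:92972869-92973168, plus strand: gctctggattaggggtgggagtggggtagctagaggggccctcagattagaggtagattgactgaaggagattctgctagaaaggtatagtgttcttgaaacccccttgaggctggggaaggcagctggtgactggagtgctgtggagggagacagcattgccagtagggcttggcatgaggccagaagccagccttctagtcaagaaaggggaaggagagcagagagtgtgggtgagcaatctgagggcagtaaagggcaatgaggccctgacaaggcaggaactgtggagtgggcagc
Gpr35, the downstream start, chr1:92978653-92978952, plus strand: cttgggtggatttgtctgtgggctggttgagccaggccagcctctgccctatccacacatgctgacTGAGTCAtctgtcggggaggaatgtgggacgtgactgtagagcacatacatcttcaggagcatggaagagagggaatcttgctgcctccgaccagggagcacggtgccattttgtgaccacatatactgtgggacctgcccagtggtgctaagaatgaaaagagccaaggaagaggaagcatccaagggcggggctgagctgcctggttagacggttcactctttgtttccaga
Gpr141, chr13:19824208-19824507, minus strand: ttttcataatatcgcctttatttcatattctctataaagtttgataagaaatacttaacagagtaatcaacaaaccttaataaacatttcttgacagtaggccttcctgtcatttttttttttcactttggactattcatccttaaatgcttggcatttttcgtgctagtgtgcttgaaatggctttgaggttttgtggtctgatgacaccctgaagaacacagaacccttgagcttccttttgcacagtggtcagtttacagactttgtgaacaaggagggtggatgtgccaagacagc

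Of these 5 windows only the downstream Gpr35 start held a match, of the AP-1 motif. Among all 32851 windows listed for mouse genes, 3.73% held the TCF/LEF motif, 7.81% the AP-1 motif and 1.79% the cyclic AMP response element. Windows were found for 66 of the 83 genes, 85 windows in all, and 8 of them held the AP-1 motif, 2 the cyclic AMP response element and 0 the TCF/LEF motif, or 9.41%, 2.35% and 0%. The TCF/LEF motif was first searched in a wider form, CTTTG followed by a pair of bases that are each A or T, and was narrowed after that result was seen. In the wider form 16.9% of all windows and 7 of the 85 member windows (8.24%) held it, with 1 match in the downstream Gpr35 window, which is not in capitals. A match is a run of letters and was not tested for binding.

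Most members were dim. The files hold no detection call, so a probe was counted as above background on an array where it exceeded the 25th percentile of that array's probes, a log2 signal of 2.83 to 2.89. By that measure 32 members were above background on all 6 arrays, 32 on 1 to 5 arrays and 19 on none. The 19 were Gpr12, Gpr15, Gpr18, Gpr20, Gpr21, Gpr22, Gpr30, Gpr33, Gpr34, Gpr37, Gpr37l1, Gpr44, Gpr56, Gpr64, Gpr82, Gpr112, Gpr128, Gpr142 and Gpr165. The median mean signal was 2.87 for the members and 5.0 for all probes. On at least 1 array, 20 members sat at that array's lowest value, which is only a bound. The replicate spread was wide at these levels, with a median SD of 0.36 on KO and 0.28 on WT arrays among members, against 0.13 and 0.11 among all probes.

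The KO and WT arrays address what Sept4 loss does to expression in stellate cells after liver injury. Of the 83 genes, 12 were higher and 14 lower in KO at an adjusted p of 0.05 in limma, adjusted over all 23473 probes. That is 31.3% of the members (14.5% higher and 16.9% lower), whereas 42.7% of all probes passed (26.7% higher and 16.0% lower). The split of all probes moved with scaling, to 22.3% higher and 20.2% lower after quantile normalisation and 21.9% and 20.7% after cyclic loess, where the members had 11 higher and 14 lower, and 11 and 15. Among them 5 rose and 7 fell by at least 2-fold, together 14.5% of the members, where the background was 7.02%. The groups did not overlap for 36 members, 18 in each direction (21.7% of the members each way), or 43.4% in all. Of all probes 56.2% did not overlap, 34.5% higher and 21.7% lower. The median log2 difference of the members was 0.03, beside 0.12 for all probes. It changed sign with scaling, to -0.09 on quantile normalisation and to -0.12 on cyclic loess. The median of all probes fell as well, to 0.02 and 0.01, and the members' median lay below it each time. The sign of the members' median thus depended on scaling.

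**Figure D1:**
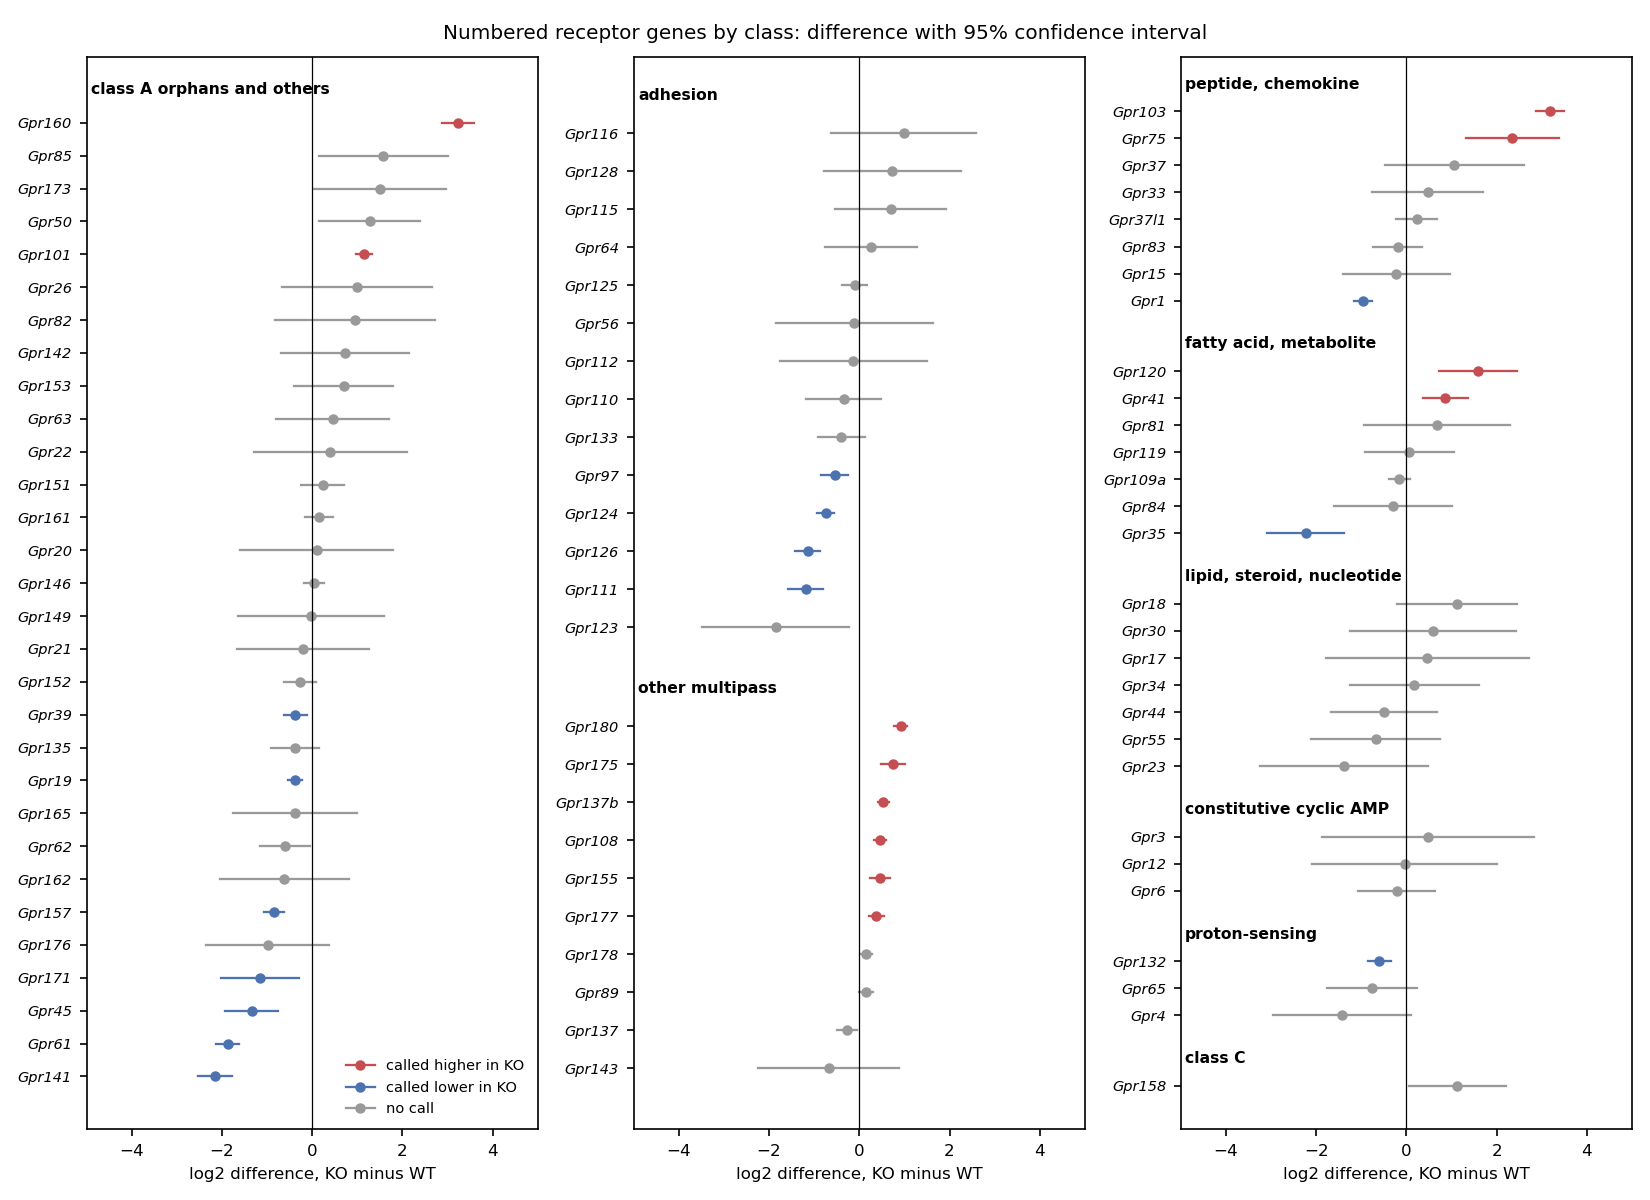
Log2 difference, KO minus WT, of each of the 83 numbered receptor genes with its 95% confidence interval from limma, grouped by receptor class and sorted within it. Red points were called higher (12), blue points lower (14), and the 57 grey points had no call; several grey intervals span more than 2 log2 units.

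The share of members called followed signal level, as it did for all probes. In the dimmest 25% of all probes by mean signal lay 39 members, of which 3 were called (7.69%, against 13.3% of all probes there). The next 25% held 27 members with 12 called (44.4%, against 29.0%), the third such group 13 with 7 called (53.8%, against 58.2%), and the brightest 4 with 4 called (100%, against 70.4%).

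**Figure D2:**
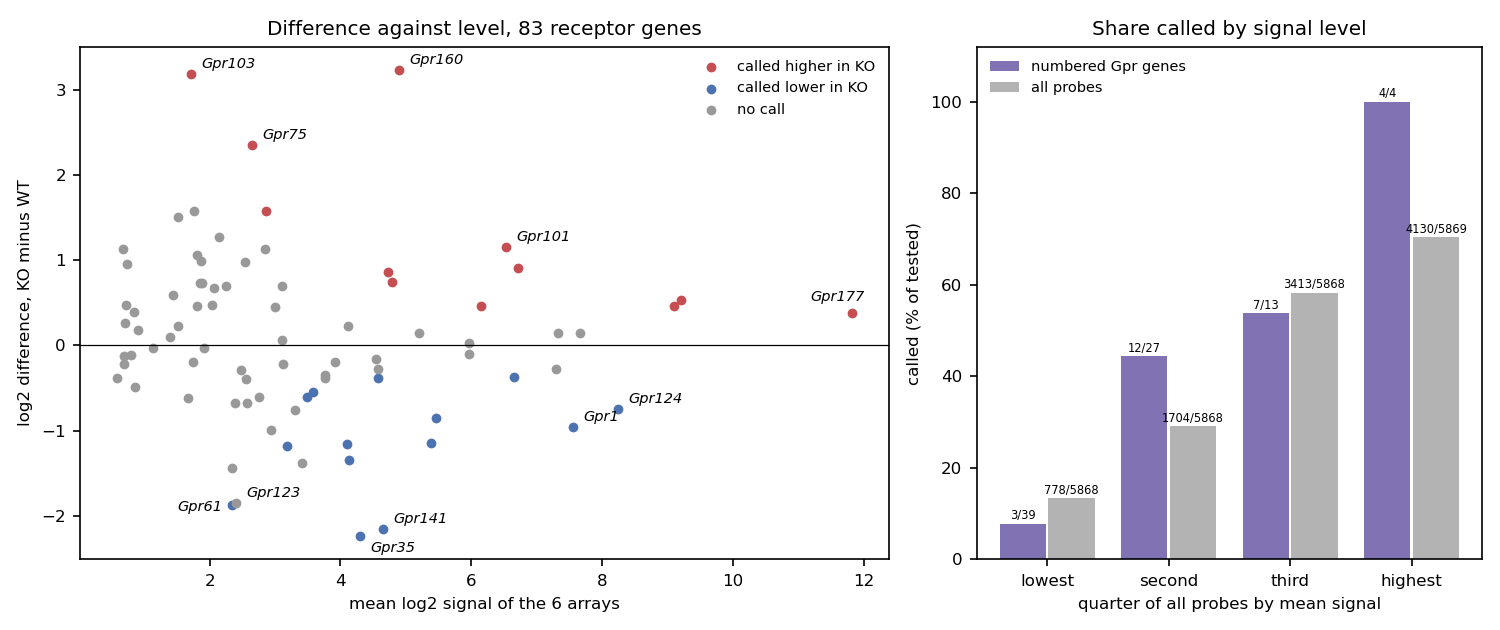
Left, the log2 difference of KO minus WT against the mean log2 signal of the 6 arrays for the 83 genes, coloured by call. Right, the percent of tested features called in each 25% of the probes by mean signal, for the numbered receptor genes and for all probes, with counts above the bars; in the dimmest group 3 of 39 members were called.

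Class A orphans and other receptors made up the biggest class, 30 genes placed there because no other class fixed for this description held them. Of these, 2 rose and 7 fell (30% called, beside 42.7% of all probes). Without adjustment, 5 rose and 8 fell at p below 0.05 in limma. The trended and robust prior also gave 5 rises and 8 falls, where 30.6% of all probes were higher and 19.7% lower. The surplus of falls was thus smaller under both. The orphan receptor gene Gpr160 had log2 signals of 6.55, 6.61 and 6.38 on KO arrays, against 3.11, 3.20 and 3.54 on WT arrays. Every KO array was far above every WT array, and all 6 were above background. The difference was 3.23 ± 0.14 (SE), or 9.38-fold (adjusted p = 0.000351 in limma). Gpr101, an X-linked orphan that couples to the stimulatory G protein, had 7.13, 7.04 and 7.13 on KO arrays, against 6.06, 5.91 and 5.88 on WT arrays. It rose by 1.15 ± 0.07 (SE), 2.22-fold, without overlap (adjusted p = 0.000543 in limma).

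Gpr141, a class A orphan, had 3.31, 3.86 and 3.57 on KO arrays, against 5.72, 5.78 and 5.70 on WT arrays. It was lower on every KO array and still above background there, and its difference was -2.16 ± 0.15 (SE), or 4.45-fold lower (adjusted p = 0.000675 in limma). A close relative, Gpr141b, lies in the same list of mouse genes, and the probe sequences were not used here, so which of the pair the probe reads is uncertain. Gpr61, an orphan related to amine receptors, had 1.47, 1.5 and 1.25 on KO arrays, against 3.40, 3.21 and 3.20 on WT arrays. All 3 KO values were below the background level, so its difference of -1.87 ± 0.10 (SE) is imprecise in size. Gpr45, an orphan, had 3.95, 3.33 and 3.09 on KO arrays, against 4.78, 4.86 and 4.76 on WT arrays, a difference of -1.34 ± 0.23 (SE).

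Gpr171, which has been reported as a receptor of the peptide BigLEN, had 2.97, 4.22 and 3.37 on KO arrays, against 4.81, 4.54 and 4.69 on WT arrays. KO replicate 2 came close to the WT values, and the difference was -1.16 ± 0.34 (SE; adjusted p = 0.0431 in limma). That call was lost without WT replicate 1, 2 or 3 (adjusted p of 0.119, 0.0913 and 0.111), without KO replicate 1 or 3 (0.0827 and 0.113) and after quantile normalisation (0.0502). Gpr157 had 4.94, 5.19 and 4.96 on KO arrays, against 5.95, 5.86 and 5.83 on WT arrays, and fell by 0.85 on the log2 scale without overlap. Gpr19 and the zinc-sensing receptor gene Gpr39 fell by 0.38 and 0.37. The Gpr39 call ended without any 1 array other than WT replicate 3, at adjusted p-values of 0.0501 to 0.0970. Among orphans without a call, Gpr85, Gpr173 and Gpr50 differed by 1.58, 1.5 and 1.27 (unadjusted p = 0.0359, 0.045 and 0.0321 in limma). Gpr62 differed by -0.60 (unadjusted p = 0.037 in limma), and Gpr146 by 0.03 with a 95% confidence interval of -0.19 to 0.26.

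**Figure D3:**
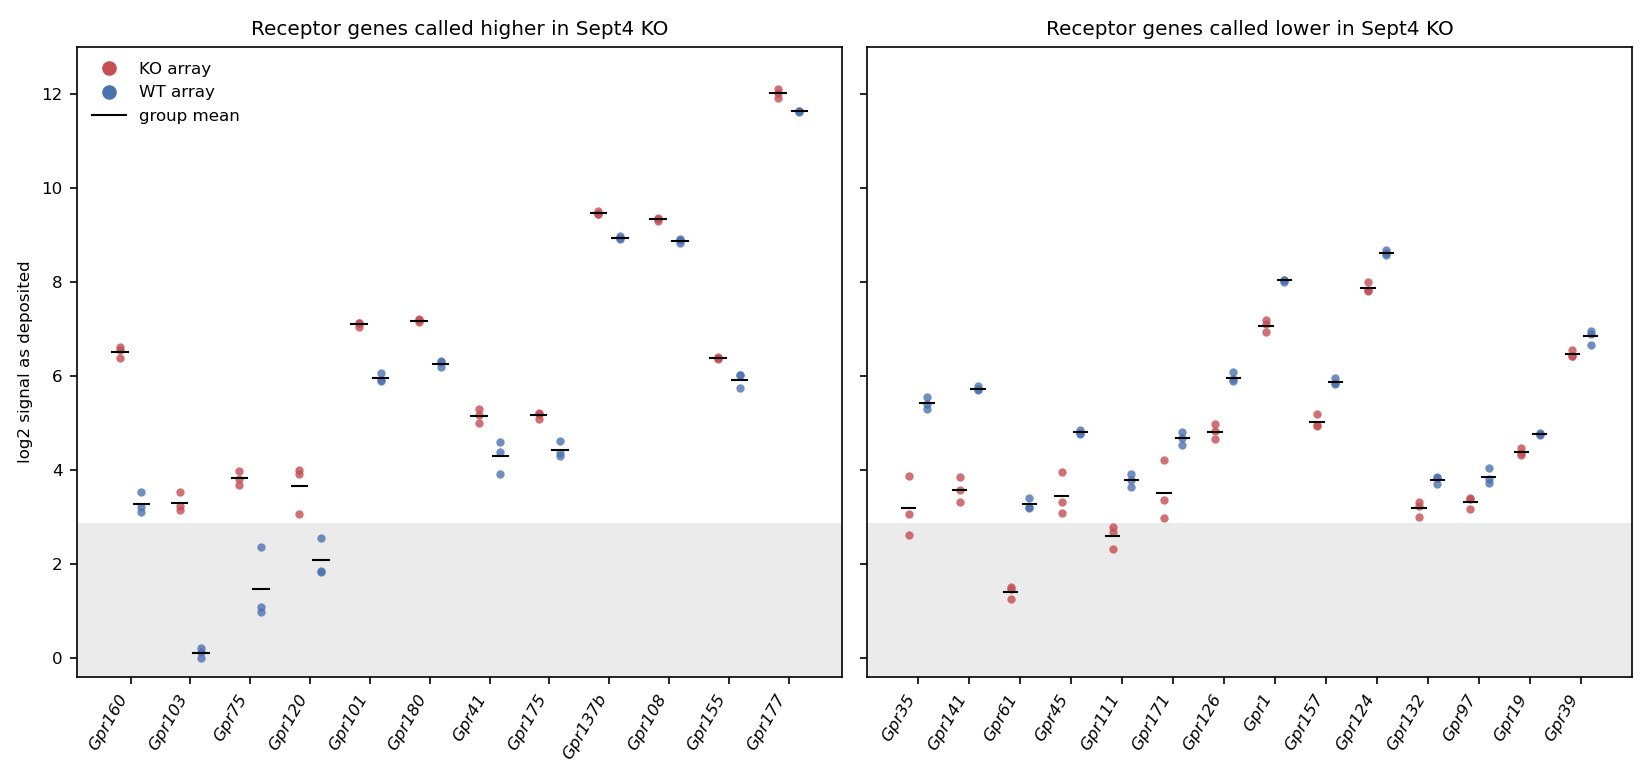
Log2 signal on each of the 3 KO arrays (red, left of each pair) and 3 WT arrays (blue) for the 12 genes called higher and the 14 called lower, with group means as black bars. Grey marks signals under the median of the arrays' 25th percentiles; WT values of Gpr103, Gpr75 and Gpr120 and KO values of Gpr61 and Gpr111 lie in it, and so does 1 KO value of Gpr35.

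Receptors of peptides, chemokines and complement numbered 8, of which 2 rose and 1 fell (37.5% called, beside 42.7% of all probes). Gpr103, now named Qrfpr, is the receptor of the neuropeptide 26RFa. Its signals were 3.52, 3.24 and 3.14 on KO arrays, against 0.00, 0.12 and 0.22 on WT arrays. The WT values were the lowest of their arrays on all 3, so WT has only a bound. The log2 difference as deposited was 3.19 ± 0.12 (SE), or 9.12-fold (adjusted p = 0.000293 in limma). Its WT spread is that of the array minima, so the SE and p do not measure the spread of this gene in WT. The size is therefore imprecise. With a linear offset of 2.34 signal units, which damps differences near background, the difference was 1.84. Gpr75, for which a lipid and a chemokine have each been proposed as ligand, had 3.98, 3.81 and 3.68 on KO arrays, against 0.99, 2.36 and 1.08 on WT arrays. It was above background on every KO array and on no WT array, and rose by 2.35 ± 0.40 (SE). With the linear offset the difference was 1.66, so its size is imprecise. Both of these genes read near background in WT, and their KO signals stayed under 4.

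In the opposite direction, Gpr1, a receptor of the adipokine chemerin, had 6.93, 7.10 and 7.18 on KO arrays, against 8.05, 8.05 and 8.0 on WT arrays. It was well above background in both genotypes and fell by 0.96 ± 0.08 (SE), 1.95-fold (adjusted p = 0.000954 in limma). The other 5 genes of the class, Gpr15, Gpr33, Gpr37, Gpr37l1 and Gpr83, had no call, and only Gpr83 was above background on all arrays, with a difference of -0.19.

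Receptors of fatty acids and small metabolites moved in both directions, with 2 of 7 higher and 1 lower (42.9% called, beside 42.7% of all probes). Gpr120 (Ffar4), which senses long-chain fatty acids, had 3.06, 3.91 and 4.0 on KO arrays, against 2.54, 1.83 and 1.86 on WT arrays. It was above background in KO and below it in WT, and rose by 1.58 ± 0.34 (SE) (adjusted p = 0.0163 in limma). With the linear offset the difference was 1.19, so its size is imprecise. The call ended without WT replicate 2 or 3 or KO replicate 2, at 0.0571, 0.0579 and 0.0534. Gpr41 (Ffar3), which senses short-chain fatty acids, had 5.16, 5.01 and 5.30 on KO arrays, against 4.59, 4.38 and 3.92 on WT arrays. It rose by 0.86 ± 0.19 (SE; adjusted p = 0.0192 in limma), which became 0.0516, 0.0579 and 0.0600 without WT replicate 2, KO replicate 1 or KO replicate 3 in limma.

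Gpr35, for which kynurenic acid is a ligand, had 2.62, 3.07 and 3.87 on KO arrays, against 5.41, 5.30 and 5.56 on WT arrays. Its KO values were spread over more than 1 log2 unit, yet all lay below the WT values, and the difference was -2.23 ± 0.33 (SE), or 4.71-fold lower (adjusted p = 0.00504 in limma). Gpr109a (Hcar2), the niacin and ketone body receptor, was above background on all arrays and differed by -0.15, with a 95% confidence interval of -0.39 to 0.08. The lactate receptor gene Gpr81 differed by 0.68, the medium-chain fatty acid receptor gene Gpr84 by -0.29 and Gpr119, a sensor of lipid amides, by 0.07, all without a call.

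Adhesion receptors, which join a long extracellular domain to the membrane-spanning part, gave 4 falls and no rise that passed among 14 genes (28.6% lower, beside 16.0% of all probes). At an unadjusted p under 0.05 in limma 5 were lower and 0 higher. With a trended and robust prior 4 were lower and 0 higher, beside 19.7% and 30.6% of all probes. Those 4 were not the same set, as Gpr97 was not among them. Gpr126 (Adgrg6), known for its need in Schwann cell myelination, had 4.65, 4.83 and 4.97 on KO arrays, against 5.92, 6.08 and 5.89 on WT arrays. It fell by 1.14 ± 0.11 (SE), 2.21-fold (adjusted p = 0.00125 in limma). Gpr124 (Adgra2), a co-activator of Wnt7 signalling in brain vessels, had 7.99, 7.82 and 7.81 on KO arrays, against 8.68, 8.57 and 8.61 on WT arrays. It fell by 0.75 ± 0.07 (SE), 1.68-fold (adjusted p = 0.00137 in limma). Both were above background on every array, and their groups stood apart.

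Gpr111 (Adgrf2) had 2.68, 2.31 and 2.79 on KO arrays, against 3.92, 3.78 and 3.65 on WT arrays, and fell by 1.18 on the log2 scale with every KO value below background. Gpr97 (Adgrg3), a receptor of granulocytes, had 3.41, 3.17 and 3.38 on KO arrays, against 3.81, 4.05 and 3.71 on WT arrays, and fell by 0.54. Its adjusted p was 0.0172 in limma, and 0.0874 with a trended and robust variance prior. Neutrophil and dendritic cell markers, measured for 6 of 6 genes, were higher for 2 and lower for 1. The log2 of their summed signal was 8.06 to 8.18 on KO and 7.90 to 7.98 on WT arrays. The called rises were Itgax (mean log2 signal 6.74 on KO and 5.73 on WT arrays) and S100a8 (difference 0.29). Ly6g was called lower (-0.48, adjusted p = 0.00318 in limma), and Csf3r differed by -0.26 without a call. Flt3 and S100a9 were above background on no array. The part of these markers in the Gpr97 result was not tested. In such bulk RNA, fewer cells of a type and less RNA per cell cannot be told apart. Gpr125 (Adgra3), a relative of Gpr124, differed by -0.10 with a 95% confidence interval of -0.38 to 0.18. Gpr123 (Adgra1), the third of that group, differed by -1.85 but had KO values between 0.32 and 2.65 and an adjusted p of 0.0701 in limma. With the linear offset it was called lower (-1.21, adjusted p = 0.0423 in limma). The collagen III receptor gene Gpr56 (Adgrg1) was below background on all 6 arrays.

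Multipass proteins outside the classical receptor families gave 6 rises and no fall that passed among 10 genes (60% higher, beside 26.7% of all probes). At an unadjusted p under 0.05 in limma 7 were higher and 1 lower. With a trended and robust prior 8 were higher and 1 lower, beside 30.6% and 19.7% of all probes. After quantile normalisation or cyclic loess 5 were higher and 1 lower, as the call of Gpr177 ended and Gpr137 was called lower. Of the 10 genes, 9 were above background on all arrays, and calls were more frequent among brighter probes. In the reported fit, 58.2% of all probes in the third group by mean signal and 70.4% in the brightest were called in either direction. The 42.7% of all probes called is therefore a low background for the 60% of this class. The split by direction in those groups was not counted. A separate fit without the dimmest 50% of probes called 49% of the probes left higher and 27.6% lower. This class was not counted in that fit, so those shares are no like-for-like background for its 6 rises. Gpr180 had 7.20, 7.18 and 7.14 on KO arrays, against 6.29, 6.31 and 6.19 on WT arrays. It rose by 0.91 ± 0.05 (SE), 1.88-fold (adjusted p = 0.000566 in limma). Gpr175 (Tpra1) had 5.19, 5.08 and 5.22 on KO arrays, against 4.61, 4.29 and 4.35 on WT arrays, and rose by 0.75. The groups of both genes stood clearly apart.

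Gpr137b, a lysosomal membrane protein, had 9.50, 9.46 and 9.45 on KO arrays, against 8.97, 8.93 and 8.91 on WT arrays, and rose by 0.53. A transcribed pseudogene, Gpr137b-ps, could share its probe, which was not examined. Gpr108, a Golgi protein, had 9.36, 9.31 and 9.35 on KO arrays, against 8.90, 8.82 and 8.91 on WT arrays, and rose by 0.46. Gpr155, a lysosomal protein that takes part in cholesterol sensing, had 6.41, 6.36 and 6.38 on KO arrays, against 5.74, 6.01 and 6.02 on WT arrays, and rose by 0.46 (adjusted p = 0.0122 in limma). These differences were small but exceeded the replicate spread, and after quantile normalisation they were 0.39, 0.33 and 0.41, all still called.

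Gpr177 (Wls), the carrier of Wnt proteins, had 11.91, 12.02 and 12.10 on KO arrays, against 11.61, 11.64 and 11.65 on WT arrays. All KO values were higher, and the difference as deposited was 0.38 ± 0.06 (SE), 1.30-fold (adjusted p = 0.00756 in limma). It shrank to 0.16 after quantile normalisation (adjusted p = 0.0820) and also to 0.16 after cyclic loess (adjusted p = 0.0899), so the call depended on scaling. In this class the Golgi pH regulator gene Gpr89 and Gpr178 (Tmem181a) differed by 0.14 and 0.15, and Gpr137 by -0.27 with an adjusted p of 0.0513, all without a call in limma. Gpr137 was called lower after quantile normalisation (-0.37, adjusted p = 0.0198), after cyclic loess (-0.36, adjusted p = 0.0237) and with the linear offset (-0.27, adjusted p = 0.0452). Gpr178 has transcribed pseudogene copies that its probe could also read.

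**Figure D4:**
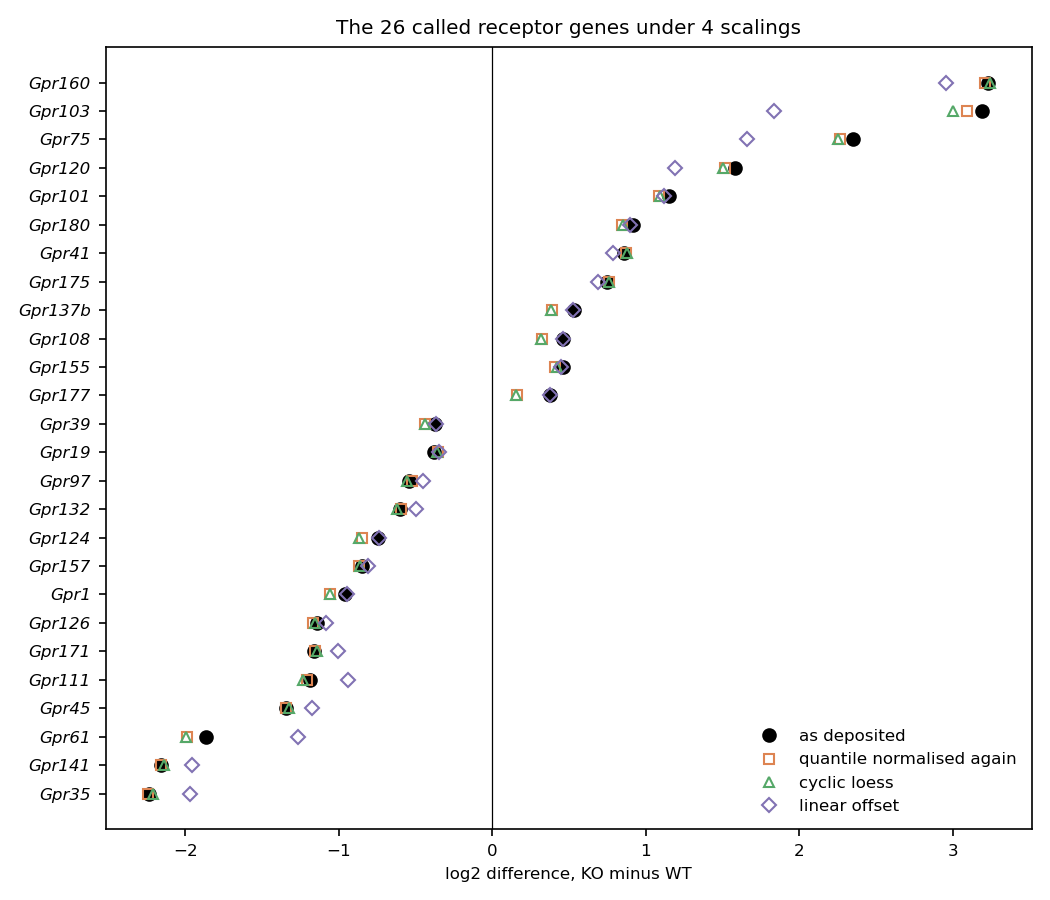
Log2 difference, KO minus WT, of the 26 called genes from the values as deposited, after quantile normalisation, after cyclic loess and with a linear offset. All 26 keep their sign; Gpr103 moves most with the offset (3.19 to 1.84), and Gpr177 shrinks from 0.38 to 0.16 under both normalisations.

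Proton-sensing receptors, which signal at acid pH, were 3, and only Gpr132 was called. It had 3.24, 3.31 and 3.0 on KO arrays, against 3.70, 3.84 and 3.82 on WT arrays. The values lay just above background and fell by 0.60 ± 0.10 (SE) (adjusted p = 0.00723 in limma), or 0.0702 with a trended and robust variance prior. Gpr4 and Gpr65 differed by -1.44 and -0.76 without a call.

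None of the 7 receptors of lipid mediators, steroids and nucleotides passed in limma, beside 42.7% of all probes, and none was above background on all arrays. At an unadjusted p under 0.05 it was also 0 of 7. With a trended and robust prior it was 0 of 7, where 30.6% of all probes were higher and 19.7% lower. Gpr18, the one with the smallest p, had 2.34, 0.35 and 1.03 on KO arrays, against 0.00, 0.12 and 0.22, the lowest values of their arrays, in WT. Its adjusted p was 0.145, and no array was above background. Gpr23 (Lpar4), a lysophosphatidic acid receptor gene, differed by -1.38 and Gpr55, which senses lysophosphatidylinositol, by -0.68. For the oestrogen-responsive receptor Gpr30 (Gper1) the difference was 0.59, for Gpr34, which senses lysophosphatidylserine, 0.18, for Gpr17 0.46 and for Gpr44, the prostaglandin D2 receptor, -0.49.

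Gpr3, Gpr6 and Gpr12, which raise cyclic AMP without a ligand, differed by 0.47, -0.22 and -0.03. None of the 3 passed in limma, also at an unadjusted p under 0.05 (0 of 3) or with a trended and robust prior (0 of 3). Gpr6, with the smallest p of these, had 2.37, 3.04 and 3.61 on KO arrays, against 3.38, 3.30 and 2.98 on WT arrays, and the groups overlapped. The class C receptor gene Gpr158 had 4.0, 2.65 and 3.60 on KO arrays, against 2.50, 1.79 and 2.57 on WT arrays. Its KO values were all higher, but the difference of 1.13 ± 0.42 (SE) gave adjusted p = 0.0869 in limma, 0.0261 without KO replicate 2 and 0.0189 with a trended and robust prior.

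Across the members, 57 had no call, and 42 of these had a replicate SD above 0.5 in at least 1 genotype, against 2 of the 12 that rose and 2 of the 14 that fell. The median SE was 0.52 among those without a call, 0.10 among those that rose and 0.10 among those that fell. At least a 2-fold difference without a call was seen for 9 members, 6 of them higher. Without adjustment, 34 of the 83 members had a p under 0.05 in limma. The share of all probes at that level was not counted, but 42.7% of them passed even after adjustment. At these levels a 2-fold change could thus go uncalled, and a missing call does not show equal expression.

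Genes that act downstream of, or beside, such receptors were mixed. Of 11 measured arrestin and receptor kinase genes (16 listed), 3 rose and 2 fell: beta-arrestin 1 (Arrb1) rose by 0.94, whereas the receptor kinase gene Gprk5 fell by 0.38, both in limma. These calls are 45.5% of the genes measured, beside 42.7% of all probes. Arrdc2 rose by 0.42, and the retinal genes Grk1 and Arr3 differed by 1.65 and -1.56, with Grk1 below background on all arrays and at the lowest value of every WT array. Of 9 measured adenylyl cyclases (10 listed), which make cyclic AMP, Adcy3 rose by 0.79, and Adcy7 and Adcy5 fell by 1.04 and 0.28 (33.3% called). Among 11 receptor chaperones and escorts (15 listed) 3 rose, Ramp2 by 0.96, Mrap by 0.94 and Rtp4 by 0.70, and 2 fell, Reep1 by 0.42 and Reep4 by 0.21 (45.5% called). Of 6 measured genes named Gpr followed by a letter (10 listed), the retinoic acid-inducible receptor genes Gprc5a and Gprc5b fell by 1.31 and 0.51 (33.3% called). The median differences of these 4 lists were 0.06, 0.17, 0.11 and 0.02, beside 0.12 for all probes.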

How the data were processed

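RNA of hepatic stellate cells was hybridised on 6 arrays, 3 KO and 3 WT, grouped by the titles. Per the labels, RNA was extracted with phenol and chloroform, the dye was Cy5 and the values were described by the authors as quantile normalised. The arrays share a median but not a distribution, with highest values of 16.63 to 16.79 on KO and 15.69 to 15.79 on WT arrays, so the values do not bear out a quantile normalisation of all 6 arrays together. The authors' labelling text speaks of tumours and microRNA, unlike the cell type and genotype labels, which were followed. The deposited log2 values were used as given; their log base was taken from their range, and scanner and background correction are unstated. The number of arrays and, for dim probes, the signal level limit the precision. Genes were named from the platform annotation, and no columns were left unused.

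Differences are KO minus WT from lmFit and eBayes in limma 3.58.1 (R 4.3.3), two-sided, Benjamini-Hochberg adjusted over 23473 probes, threshold 0.05. There were 4 residual and 1.11 prior degrees of freedom. No measured value entered the symbol rule, but the members, receptor classes and lists were chosen with earlier results of these data known, so counts by class are descriptions. Values on every array are given for the 12 largest rises and falls, the smallest p in each class, and Gpr177 and Gpr124; Gpr48 and Gpr49, also in that rule, were not analysed here. Gpr19 and Gpr39, outside it, are named because they were called. Alternatives were quantile normalisation, median centring, cyclic loess, array weights, filters on dim probes, a trended and robust prior, an offset on the linear scale (the 10th percentile), a replicate block and leaving out each array. Deviations of same-numbered arrays were uncorrelated (r = 0.0077, -0.0013 and -0.0020 across probes), so the numbers were not taken as pairs. Tested on simulated data with 200 of 23473 probes changed, the same fit called 2.99% of changes of 0.5, 59.7% of changes of 1 and 68.2% of changes of 2 on the log2 scale, and 8.42% of calls were false. The simulation set no lowest value and changed far fewer probes than the 42.7% called in the data. These shares therefore do not give the power for the members here. Figures were drawn with matplotlib 3.10.9.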

Additional observations from a re-analysis of the deposited data

How the results depend on the processing

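Of the 26 called genes, 18 had the call under every alternative that tested them, and the exceptions were Gpr39, Gpr41, Gpr97, Gpr120, Gpr132, Gpr155, Gpr171 and Gpr177. The filters did not test all 18. Those on the dimmest 25% and 50% of probes both left out Gpr61, Gpr75 and Gpr103. The filter on an array's lowest value also left out Gpr103. Gpr19, Gpr35, Gpr45, Gpr111, Gpr141, Gpr160 and Gpr175 were not tested without the dimmest 50%. The number of members higher in KO lay between 8 and 18 and the number lower between 6 and 16 under the alternatives, beside 12 and 14 as reported. Of all probes tested, the alternatives called 20.9% to 49% higher and 11.8% to 27.6% lower. The 6 came without the dimmest 50% of probes, where only 17 members were tested. Leaving out each array gave 11 to 13 higher and 12 to 13 lower, beside 22.1% to 23.6% and 11.8% to 15.1% of all probes. The median difference of the members was -0.092 after quantile normalisation, -0.12 after cyclic loess, -0.20 without the dimmest 25% of probes, 0.14 without the dimmest 50%, -0.15 without probes at the lowest value of an array and -0.0125 with array weights. Leaving out each array moved it between 0.0137 and 0.123. The median of all probes lay between 0.01 and 0.13 under every alternative. With the replicate block, 10 members were higher and 12 lower, beside 20.9% and 12% of all probes, and the median was 0.03. The labels do not say whether same-numbered arrays belong together. Their deviations were uncorrelated, which cannot exclude a weak pairing. With the block the calls of Gpr39, Gpr41, Gpr97, Gpr120, Gpr155 and Gpr171 ended, and Gpr158 was called. Gpr6 differed by 0.10 without KO replicate 1, with differences of -0.52 to 0.10 over the arrays left out. Averaging a gene's probes could give no other value, since each member had 1 probe. Probes near an array's lowest value give no reliable size of difference.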
